A study of Mus musculus with 25 samples.

Results

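E14 cells, a male mouse embryonic stem (ES) cell line that grows without feeder cells, were cultured in medium with serum and leukemia inhibitory factor (LIF) and treated with CHIR99021 for 48 h. The comparison described here is between the lowest dose, 2.5 µM, and untreated cells (0 µM). Its members are 4 of the 25 samples of the series, 2 libraries at each of these doses, chosen by the dose in their labels. The remaining samples are unedited E14 cells at 5, 7.5 and 10 µM (2 libraries each) and 15 E14 clones with a heterozygous mutation of *Ctnnb1*, the gene of β-catenin. All 4 libraries come from unedited cells of this single line, with no engineered allele and no other agent named. Whether the untreated cells received the solvent, and whether the 2 libraries of a dose came from separate cultures, is not given in the sources used here. The p-values thus rest only on a spread between libraries, which may be technical. That spread was estimated from all 10 libraries of unedited cells and shared across genes.

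In the canonical Wnt pathway, the kinase GSK3, held in a destruction complex with APC and AXIN, phosphorylates β-catenin and marks it for degradation. CHIR99021 inhibits GSK3, so that β-catenin accumulates, enters the nucleus and acts with TCF/LEF transcription factors on target genes, some of which, such as *Axin2*, *Nkd1*, *Notum* and *Znrf3*, feed back to restrain the pathway. In mouse ES cells, GSK3 inhibition is known to favour self-renewal by relieving repression by TCF7L1, and stronger Wnt activity is known to turn on genes of the primitive streak. GSK3 also phosphorylates glycogen synthase, MYC and other substrates, so that not every response to the compound has to pass through β-catenin.

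*Sp5*, a zinc finger transcription factor gene that Wnt signals turn on directly, had the largest fold change among the genes that rose and averaged 20 CPM or more, and its promoter sequence is shown because it carries the core letters of the TCF/LEF motif. The stretch lies on the plus strand at chr2:70474792-70474852 of GRCm38 and is taken from RefSeq. The capitals mark CTTTGAT, whose first base lies 104 bases before the annotated start.

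Sp5 promoter: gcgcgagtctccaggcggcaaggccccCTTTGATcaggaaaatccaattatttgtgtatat

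CTTTGAT was searched on both strands from 250 bases before to 50 bases after each RefSeq gene start. It stood in the window of 3 of the 102 matched genes that rose at 2.5 µM (2.94%; *Sp5*, *Gm5148* and *Npc2*) and of 6 of the 91 matched genes that fell (6.59%), against 2.85% of the 8257 matched genes tested. Only 5 of the 10 β-catenin target genes described next were in the promoter table, and *Sp5* was the one with the letters. The palindrome CACGTG (E-box), which cannot overlap with CTTTGAT, stood in 12.7% of genes that rose, 9.89% of genes that fell and 12.5% of genes tested. These matches are descriptions of short windows near the start, and distal elements were not searched.

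Transcripts were measured in bulk RNA by mcSCRB-seq, which reads transcript 3′ ends and counts each molecule once through a unique molecular identifier (UMI). The 4 libraries held 695864 to 1839735 UMI counts and 14301 to 16175 detected genes, and where a gene has no count in a library, up to 3 counts remain possible (95% confidence, counting error only), which is 1.63 to 4.31 CPM (counts per 1000000 counts of the library). Counts of the 2 libraries at each dose were further apart than sampling noise allows (chi-square per degree of freedom 2.03 at 0 µM and 2.04 at 2.5 µM), so none was a copy of another. The share of counts on mitochondrially encoded genes set the libraries apart in a way that the dose does not, with 1.31% in untreated replicate 1 and 1.26% in 2.5 µM replicate 2, but 0.562% in untreated replicate 2 and 0.551% in 2.5 µM replicate 1. Each of these 2 sets thus holds 1 library of either dose, and the log2 ratio within the high and the low set is given beside the main values. The 7 ES cell markers summed to 4168 and 4199 CPM in untreated cells and to 3755 and 3876 CPM at 2.5 µM. Each of the 7 was detected in every library, although *Pou5f1*, which encodes OCT4, was counted at only 15.9 to 24.4 CPM. In bulk RNA, fewer cells that use a gene and less of its RNA per cell cannot be told apart, which holds for every value below.

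CHIR99021 at 2.5 µM changed the transcript levels of a small share of genes, in both directions. Of 10674 genes tested, 248 passed the threshold (2.32%; edgeR quasi-likelihood test, Benjamini-Hochberg adjusted p under 0.05), of which 137 rose (1.28%) and 111 fell (1.04%). Counts of called list members below are to be read beside these shares. At least a 2-fold difference was seen for 66 of the genes that rose and 45 of those that fell, and 241 of the 248 were protein-coding. The median log2 fold change over all genes was 0.00, a value that the normalization sets near 0, so a shift in total RNA per cell could not be seen. The untreated and treated libraries did not overlap in any of the 248, which is also the case for 42.0% of all genes tested. Depth limits what could be seen, since the median standard error of a log2 fold change was 0.26. In simulated counts with the same library sizes, changes were planted only in genes averaging 20 CPM or more. There the test recovered 38.8% of planted 1.5-fold, 79.1% of 2-fold and 98.5% of 3-fold changes. Recovery among genes with fewer counts was not tested. The simulated spread had no scatter of genes around its trend, so recovery in the data can be lower.

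The number of genes called depended on single libraries and on the fit. It was 70 without untreated replicate 1, 150 without untreated replicate 2, 153 without 2.5 µM replicate 1 and 123 without 2.5 µM replicate 2, and 37 genes were called in each of these 4 fits. It was 77 with DESeq2 (58 rose and 19 fell), 31 after thinning all counts to the smallest library of the series, and 545 when the mitochondrial-share set entered as a block. A core of 18 genes passed under all 12 alternatives set out for the comparison. Those that rose were *Sp5*, *Trpm1*, *Ntn1*, *Ttc28*, *1700097N02Rik*, *Vim*, *Pdgfa*, *Krt8*, *Krt18*, *Cdkn1a*, *Lgals1*, *Tfcp2l1* and *Sdc4*, and those that fell were *Ucp2*, *Utf1*, *Sycp3*, *Ifitm1* and *Bckdha*. *1700097N02Rik*, with 499 counts over the 4 libraries, overlaps *Glo1* (1777 counts) on the same strand and *Dnah8* on the other. Whether its counts are separate from theirs was not tested.

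**Figure D1:**
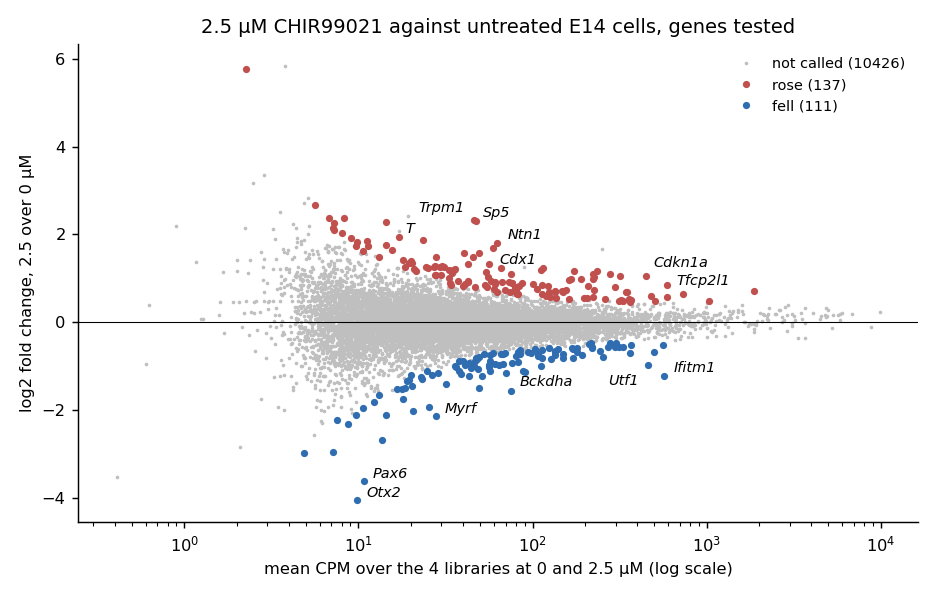
Log2 fold change at 2.5 µM over 0 µM for each of the 10674 genes tested, against its mean CPM over the 4 libraries (log scale). Red points are the 137 genes that rose and blue points the 111 that fell; the fitted values of genes with few counts, on the left, depend on the prior count.

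Of the 10 genes that the study followed as β-catenin targets, 5 rose and none fell at the lowest dose, with a median log2 fold change of 0.82 against 0.00 over all genes. The study followed these genes in these same libraries, so the list's direction is not independent evidence. Transcript levels of *Sp5* were 15.2 and 14.9 CPM in untreated cells and 87.7 and 66.3 CPM at 2.5 µM, a log2 fold change of 2.33 ± 0.26 (SE; adjusted p = 1.6e-07). *Cdx1*, a homeobox gene of the posterior axis, went from 27.7 and 28.7 to 92.0 and 87.7 CPM (1.69 ± 0.20 on the log2 scale, adjusted p = 3.5e-07). In both genes the treated libraries stood more than 3-fold above the untreated ones, and the log2 ratios within the high and low mitochondrial sets were 2.02 and 2.47 for *Sp5* and 1.62 and 1.66 for *Cdx1*.

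*Axin2*, the feedback scaffold of the destruction complex, was counted at 15.8 and 13.8 CPM before and 37.4 and 44.2 CPM after treatment (log2 fold change 1.48 ± 0.29, adjusted p = 0.00124). *Tbx3*, a T-box factor of naive ES cells, went from 48.9 and 51.0 to 84.8 and 117 CPM (1.09 ± 0.18, adjusted p = 0.000199). *Bmp4*, a BMP ligand, went from 48.9 and 54.2 to 93.4 and 96.1 CPM (0.92 ± 0.19, adjusted p = 0.00336). These 3 genes were 2.80-, 2.13- and 1.90-fold higher, and the differences kept most of their size with 1 library left out, although not every call held. *Axin2* and *Bmp4* did not pass without untreated replicate 1 (log2 fold change 1.58 and 0.81, adjusted p = 0.0623 and 0.192), and *Axin2*, *Tbx3* and *Bmp4* did not pass without 2.5 µM replicate 2 (log2 fold change 1.36, 0.83 and 0.93, adjusted p = 0.0817, 0.101 and 0.0564). A fit that leaves 1 library in an arm has less power, here and wherever such a fit is given below.

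For the other 5 targets no change was detectable at this depth. *Gbx2*, a homeobox gene, had 21.2 and 15.9 CPM untreated and 35.9 and 28.2 CPM at 2.5 µM, groups that did not overlap, with a log2 fold change of 0.71 (95% confidence interval 0.14 to 1.28, adjusted p = 0.221). *Notum*, which encodes a secreted enzyme that inactivates Wnt ligands, had 9.24 and 8.51 against 8.62 and 16.0 CPM (0.59, interval −0.25 to 1.43). *Nkd1*, a Dishevelled inhibitor gene, had 9.24 and 9.57 against 17.2 and 9.15 CPM (0.39, interval −0.46 to 1.23). In both of these feedback genes 1 treated library was as low as the untreated ones. *Etv4*, an ETS factor gene, had 29.4 and 17.0 against 28.7 and 19.8 CPM (−0.08, interval −0.69 to 0.53), and *Znrf3*, whose product removes Wnt receptors from the cell surface, had 23.9 and 23.4 against 25.9 and 18.3 CPM (−0.15, interval −0.73 to 0.43). A 2-fold rise lies outside the intervals of *Etv4* and *Znrf3* but inside those of *Gbx2*, *Notum* and *Nkd1*.

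**Figure D2:**
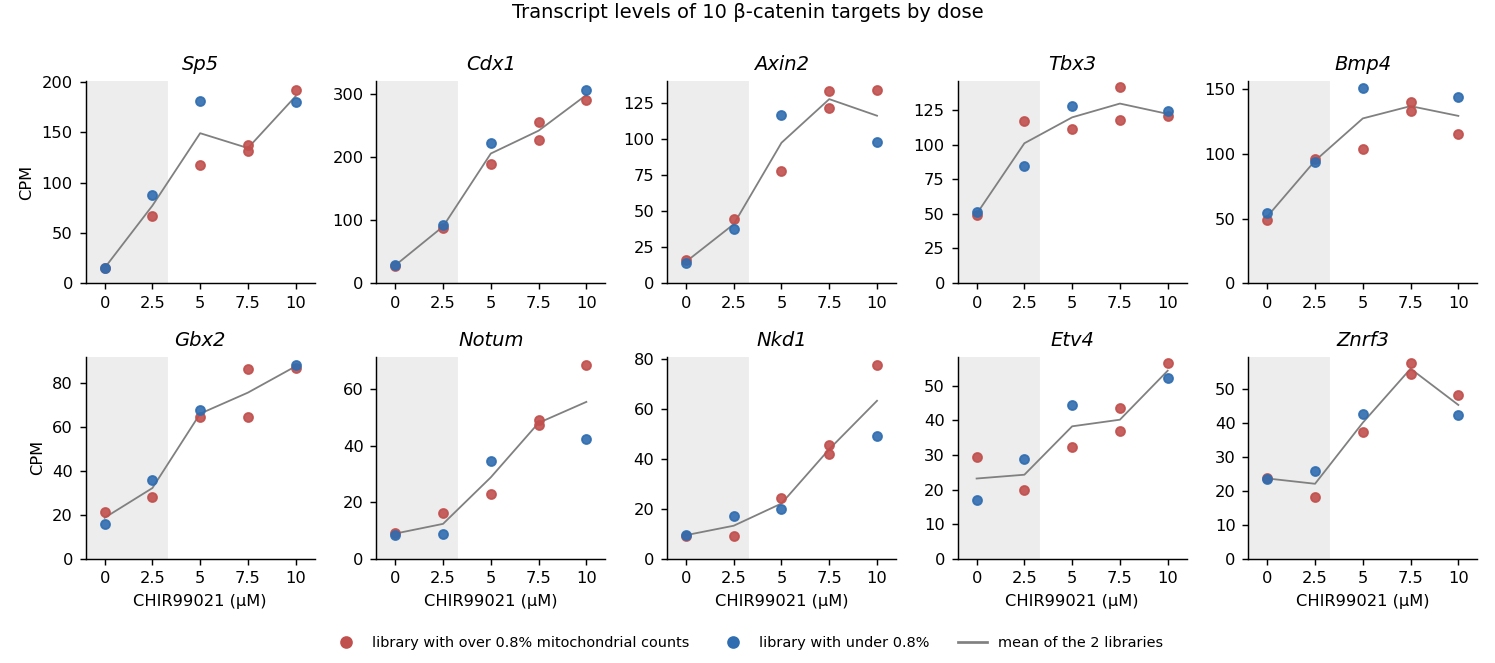
Transcript levels (CPM, linear axis from 0) of the 10 targets in the 10 libraries of unedited cells by CHIR99021 dose, with the mean of the 2 libraries as a line and the compared doses shaded. *Sp5* and *Cdx1* separate clearly at 2.5 µM, whereas *Notum*, *Nkd1*, *Etv4* and *Znrf3* overlap with untreated cells there and lie higher at 10 µM.

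The same genes differed in how far 2.5 µM was from their levels at higher doses. Levels of *Cdx1* averaged 28.2, 89.8, 206, 242 and 299 CPM at 0, 2.5, 5, 7.5 and 10 µM, and both 5 and 10 µM were above 2.5 µM (adjusted p = 3.42e-05 and 1.1e-09). The corresponding means of *Axin2* were 14.8, 40.8, 97.3, 128 and 116 CPM, again with 5 µM above 2.5 µM (adjusted p = 0.00961). *Tbx3* and *Bmp4* showed no detectable difference between 5 and 2.5 µM (adjusted p = 0.961 and 0.80) or between 10 and 2.5 µM (adjusted p = 0.772 and 0.548). *Nkd1* averaged 9.40 CPM untreated, 13.2 CPM at 2.5 µM and 63.3 CPM at 10 µM, and *Notum* 8.87, 12.3 and 55.5 CPM at these doses. For these feedback genes the difference between 10 and 2.5 µM passed the test (adjusted p = 6.76e-07 for *Nkd1* and 1.34e-05 for *Notum*), as it did for *Gbx2*, *Znrf3* and *Etv4* (adjusted p = 0.000112, 0.0253 and 0.0156). These comparisons share the 2.5 µM libraries with the main one and are not independent of it. Over all genes, 12 passed between 5 and 2.5 µM (0.112%) and 116 between 10 and 2.5 µM (1.09%), while 913 passed between 5 and 0 µM (8.55%), 1364 between 7.5 and 0 µM (12.8%) and 1074 between 10 and 0 µM (10.1%).

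The core machinery of the pathway did not move detectably at the transcript level. *Ctnnb1* itself was counted at 440 and 445 CPM untreated and 362 and 456 CPM at 2.5 µM (log2 fold change −0.08, interval −0.35 to 0.19), an interval far from a 2-fold change in either direction. None of the 16 tested genes of β-catenin and its destruction complex was called by edgeR or DESeq2 (median log2 fold change 0.02, range −0.32 to 0.65), with 0 at an unadjusted p under 0.05. Nor was any of 11 Wnt receptor genes by either tool (median 0.06), with 3 at an unadjusted p under 0.05. Among 9 TCF/LEF and SP factors and their TLE corepressors, *Sp5* alone passed. *Tcf7l1*, the main repressor of the family in ES cells, had 151 and 131 against 106 and 115 CPM (−0.33, interval −0.64 to −0.02, adjusted p = 0.339), and *Lef1* had 8.15 and 11.7 against 12.9 and 9.91 CPM. Of 6 tested negative feedback genes, *Axin2* rose and *Sfrp1*, which encodes a secreted Wnt antagonist, fell from 105 and 102 to 66.1 and 65.6 CPM (adjusted p = 0.0457). The *Sfrp1* call was lost without any 1 of the 4 libraries (adjusted p from 0.111 without 2.5 µM replicate 1 to 0.331 without 2.5 µM replicate 2, with 0.275 and 0.124 without untreated replicates 1 and 2).

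Some genes of the primitive streak rose from a low base. Of 6 tested members of a list of 14 streak and mesendoderm genes, 3 rose (*T*, *Wnt3* and *Fgf8*) and none fell. Over all genes 1.28% rose and 1.04% fell. All 6 fold changes were above 0 (median log2 1.81, but 0.82 without 2.5 µM replicate 2, and 1.36 and 0.30 within the high and low mitochondrial sets). Members low in untreated cells, such as *Wnt3* and *Fgf8*, passed the count filter only with treated libraries. The filter thus set the shared direction in part. The 14 genes summed to 33.2 and 33.0 CPM untreated against 90.5 and 106 CPM at 2.5 µM. *T* (brachyury), the T-box factor of nascent mesoderm and a direct Wnt target, went from 9.78 and 10.6 to 38.8 and 35.1 CPM (log2 fold change 1.87 ± 0.32, adjusted p = 0.000184; 1.70 and 1.76 within the high and low sets). *Wnt3*, the Wnt ligand that acts in the early streak, went from 8.15 and 5.32 to 27.3 and 27.4 CPM (1.94 ± 0.36, adjusted p = 0.00069). Both kept their call without each library in turn. *Fgf8*, a fibroblast growth factor of the streak, had 3.80 and 6.38 CPM untreated and 8.62 and 19.8 CPM at 2.5 µM (adjusted p = 0.0397), and did not pass without untreated replicate 1 or 2 or without 2.5 µM replicate 2 (adjusted p = 0.481, 0.0600 and 0.703). *Wnt3* averaged 30.5, 32.5 and 27.1 CPM at 5, 7.5 and 10 µM, close to its 27.4 CPM at 2.5 µM, whereas *T* averaged 103, 106 and 113 CPM, and its difference between 5 and 2.5 µM passed the test (adjusted p = 0.000251).

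A further 3 of 12 tested Wnt target genes outside the study's list rose, *T* and 2 that rested on few counts. *Ccnd2*, which encodes cyclin D2, went from 10.9 and 11.7 to 24.4 and 27.4 CPM (adjusted p = 0.0186), and *Fst*, which encodes the activin antagonist follistatin, from 1.63 and 1.06 to 11.5 and 8.39 CPM (adjusted p = 0.0308). Neither passed without any 1 of the 4 libraries (adjusted p from 0.0509 without 2.5 µM replicate 1 to 0.297 without untreated replicate 1 for *Ccnd2*, with 0.0564 and 0.248 without untreated replicate 2 and 2.5 µM replicate 2, and 0.294, 0.133, 0.162 and 0.111 for *Fst* in label order). Like *Fst*, *Rspo3*, which encodes a secreted Wnt agonist, passed the count filter only with treated libraries. *Rspo3* had no count in the untreated libraries and 11 counts at 2.5 µM. With the untreated pool set to its limit of 3 counts, and the 11 counts taken as exact, it was 5.08-fold higher. It did not pass without untreated replicate 1 or 2 or without 2.5 µM replicate 2 (adjusted p = 0.343, 0.0948 and 0.559). Among 8 tested genes of the Cdx, Hox and retinoic acid list, *Cdx1* alone was called.

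Genes of the naive state moved in both directions, with 3 of 13 higher, 2 lower and a median log2 fold change of 0.02. Over all genes, 1.28% rose and 1.04% fell. *Tfcp2l1*, a factor that sustains self-renewal downstream of LIF and of GSK3 inhibition, went from 475 and 387 to 691 and 832 CPM (0.84 ± 0.13 on the log2 scale, adjusted p = 3.3e-05; 0.82 and 0.87 within the high and low sets), and passed without each library in turn. *Klf4*, a reprogramming factor and LIF target, went from 264 and 277 to 430 and 421 CPM (0.68 ± 0.13, adjusted p = 0.000769). *Nr0b1*, which encodes the nuclear receptor DAX1, fell from 157 and 138 to 118 and 83.1 CPM (adjusted p = 0.0458), and *Fgf4*, the autocrine growth factor of ES cells, fell from 327 and 333 to 187 and 243 CPM (adjusted p = 0.0138). *Nanog*, with 242 and 298 against 273 and 243 CPM (interval −0.32 to 0.26), and *Esrrb*, with 346 and 286 against 329 and 322 CPM (interval −0.20 to 0.32), overlapped between the doses. *Klf4*, *Nr0b1* and *Fgf4* did not pass without untreated replicate 1 (adjusted p = 0.0731, 0.409 and 0.107), *Nr0b1* and *Fgf4* without untreated replicate 2 (0.0812 and 0.0959), *Fgf4* without 2.5 µM replicate 1 (0.192) and *Nr0b1* without 2.5 µM replicate 2 (0.664). DESeq2 gave adjusted p = 0.444 for *Nr0b1* and 0.0798 for *Fgf4*.

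Factors shared by naive and primed cells tended to lower values, with 10 of 12 fold changes below 0 (median log2 −0.27). Of the 12, 2 were called, where 2.32% of all genes were. *Utf1*, a chromatin-bound pluripotency factor gene, was among the most clearly changed genes, at 602 and 626 CPM untreated and 305 and 310 CPM at 2.5 µM (−0.97 ± 0.12, adjusted p = 1.28e-06; −0.94 and −1.0 within the high and low sets). The 2 libraries of each dose lay close together, and the doses differed 1.96-fold. *Dppa4*, another chromatin-associated pluripotency gene, fell from 273 and 257 to 164 and 188 CPM (adjusted p = 0.0200), a call that was lost without any 1 of the 4 libraries (adjusted p = 0.234 and 0.0697 without untreated replicates 1 and 2, 0.141 and 0.0788 without 2.5 µM replicates 1 and 2). *Sox2* had 640 and 632 against 575 and 565 CPM, with an interval from −0.39 to 0.12.

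Most primed markers that were called fell. Of 8 tested genes of the primed list, 4 fell and 1 rose, against 1.04% and 1.28% of all genes (median log2 fold change −0.60). *Otx2*, a homeobox factor of the epiblast and anterior neural plate (chr14:48657677-48673819, minus strand), went from 17.9 and 19.1 CPM to 1.44 and 0.762 CPM. That is 51 counts over the untreated libraries and 2 counts at 2.5 µM, a ratio of pooled levels of 18.4 with a counting interval from 4.84 to 156 (fitted adjusted p = 0.000471). Both treated libraries lay below the level of 3 counts, and the means at 5, 7.5 and 10 µM were 0.480, 0 and 1.51 CPM. *Pou3f1*, the POU factor OCT6, went from 67.9 and 55.3 to 27.3 and 37.4 CPM (adjusted p = 0.0222), *Dnmt3b*, a de novo DNA methyltransferase gene, from 151 and 123 to 66.1 and 89.2 CPM (adjusted p = 0.00395), and *Zic5*, a zinc finger factor gene, from 53.8 and 52.1 to 23.0 and 31.3 CPM (adjusted p = 0.0369). *Cd24a*, a cell surface sialoglycoprotein gene, went the other way, from 60.3 and 63.8 to 108 and 117 CPM (adjusted p = 0.00123).

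Some of these primed calls did not pass with 1 library left out. *Otx2* did not pass without 2.5 µM replicate 2 (adjusted p = 0.0912), and *Cd24a*, *Pou3f1*, *Dnmt3b* and *Zic5* did not pass without untreated replicate 1 (adjusted p = 0.104, 0.380, 0.238 and 0.275). Further losses were *Zic5* without untreated replicate 2 (0.0977), *Pou3f1*, *Dnmt3b* and *Zic5* without 2.5 µM replicate 1 (0.162, 0.0658 and 0.205), and *Cd24a*, *Pou3f1* and *Zic5* without 2.5 µM replicate 2 (0.0506, 0.0852 and 0.124). In the fit with the mitochondrial-share set as a block all 5 passed, with adjusted p of at most 0.0120. All 248 called genes passed that fit, so it does not set these 5 apart. DESeq2 called 1 of the 8 tested genes of the primed list.

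*Pax6*, a paired-box factor of the neural plate and eye, was the only called gene of 5 tested neural markers. It had 17.4 and 23.4 CPM in untreated cells and 0 and 2.29 CPM at 2.5 µM, that is 54 against 3 counts (ratio of pooled levels 13.0, counting interval 4.22 to 65.0; adjusted p = 0.00102), and it passed without each library in turn. The 12 neural markers summed to 132 and 129 CPM untreated and 86.2 and 89.2 CPM at 2.5 µM, with *Neurog2* and *Dcx* at 0 in all 4 libraries. *Otx2* and *Pax6* were thus detected in both untreated libraries and were near or at 0 in both treated ones.

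**Figure D3:**
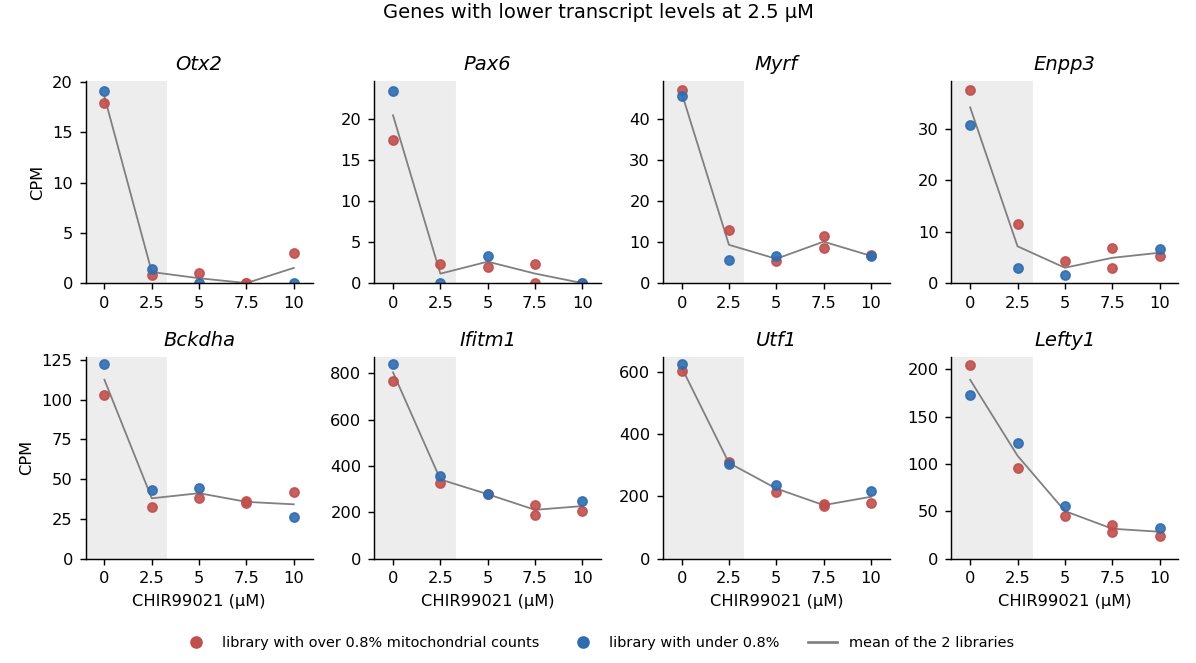
Transcript levels (CPM, linear axis from 0) of 8 genes that fell at 2.5 µM in the 10 libraries of unedited cells by dose, with the mean of the 2 libraries as a line. *Otx2* and *Pax6* go from about 20 CPM to near 0, *Utf1* from 602 and 626 to 305 and 310 CPM, and *Lefty1* falls further at higher doses.

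Of 9 tested genes of the DNA methylation list, 3 fell and none rose, against 1.04% and 1.28% of all genes (median log2 fold change −0.17). Besides *Dnmt3b*, *Dnmt3l*, the catalytically inactive partner of the de novo enzymes, fell from 107 and 112 to 44.5 and 64.8 CPM (−0.91 ± 0.20, adjusted p = 0.00543). *Tet1*, which oxidises 5-methylcytosine, fell from 229 and 179 to 118 and 146 CPM (−0.60 ± 0.15, adjusted p = 0.0224). The list therefore holds genes for adding and for removing the mark among those that fell. *Dnmt3b*, *Dnmt3l* and *Tet1* did not pass without untreated replicate 1 (adjusted p = 0.238, 0.0609 and 0.479) or 2.5 µM replicate 1 (0.0658, 0.0806 and 0.192), nor *Tet1* without 2.5 µM replicate 2 (0.0564), and DESeq2 gave 0.0676, 0.121 and 0.188.

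Among other signalling pathways, 2 of 10 tested Nodal pathway genes fell and none rose, against 1.04% and 1.28% of all genes (median log2 −0.10). *Lefty1*, a Nodal target gene that encodes a Nodal antagonist, fell from 204 and 173 to 122 and 95.3 CPM (−0.82 ± 0.16, adjusted p = 0.00164; −1.07 and −0.46 within the high and low sets). Its means at 5 and 10 µM were 50.3 and 28.4 CPM, below those at 2.5 µM (adjusted p = 0.00173 and 6.76e-07). *Gdf3*, a ligand related to Nodal, fell from 102 and 133 to 74.7 and 68.6 CPM (adjusted p = 0.0393). *Lefty1* did not pass without untreated replicate 1 or 2.5 µM replicate 2 (adjusted p = 0.104 and 0.190), nor *Gdf3* without untreated replicate 2 (0.328) or 2.5 µM replicates 1 and 2 (0.0648 and 0.373), and DESeq2 gave 0.0920 and 0.299.

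In the BMP list, 2 of 13 genes rose, against 1.28% of all genes, and 11 fold changes were above 0 (median log2 0.72, with 0.25 and 0.69 within the high and low sets). A member low in untreated cells was tested only if treated libraries passed the count filter, as for *Nog* here. The filter thus set the shared direction in part. Beside the ligand *Bmp4*, the secreted BMP antagonist gene *Noggin* (*Nog*) went from 2.17 and 3.19 to 14.4 and 9.15 CPM, near the limit of detection (adjusted p = 0.0456), and was not called without any 1 of the libraries (adjusted p = 0.443 and 0.0999 without untreated replicates 1 and 2, 0.270 and 0.0958 without 2.5 µM replicates 1 and 2). *Bmp4* did not pass without untreated replicate 1 or 2.5 µM replicate 2, as given above (0.192 and 0.0564). Of 16 tested FGF-ERK response genes, *Dusp4*, a phosphatase gene that restrains ERK, rose from 26.1 and 33.0 to 54.6 and 49.6 CPM (adjusted p = 0.0308) and *Fgf4* fell, with a median log2 of −0.08. *Dusp4* did not pass without untreated replicate 1 (adjusted p = 0.450), 2.5 µM replicate 1 (0.162) or 2.5 µM replicate 2 (0.117). The LIF-STAT3 list had 2 of 12 higher, *Klf4* and *Tfcp2l1*, and a median of 0.08.

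**Figure D4:**
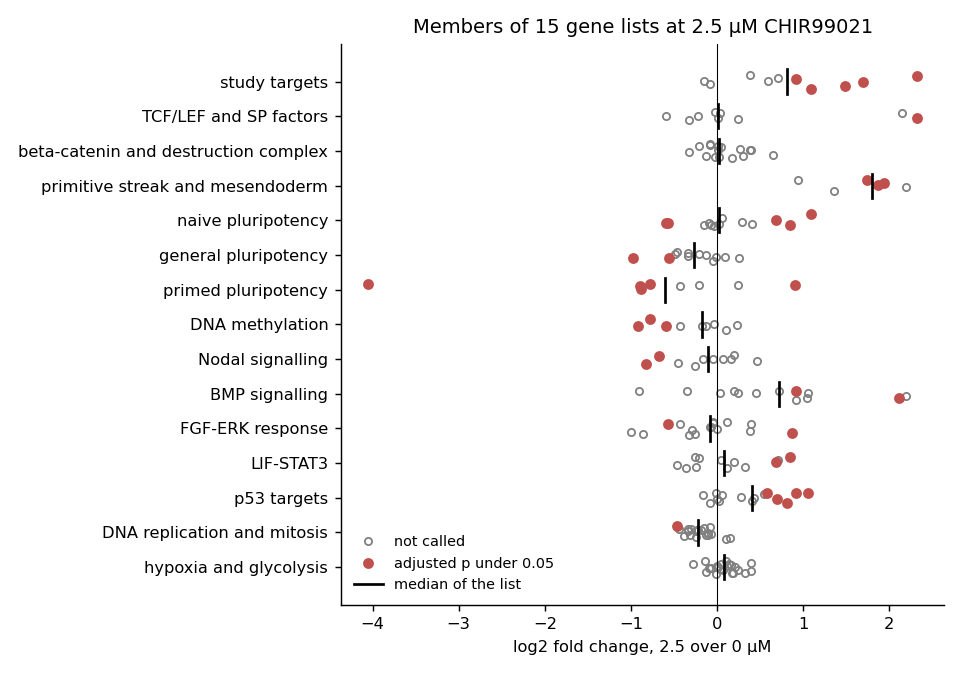
Log2 fold change at 2.5 µM over 0 µM of the tested members of 15 gene lists (points; filled red where the adjusted p was under 0.05), with the median of each list as a bar. The tested members of the streak list all lie above 0, partly through the count filter. The primed list reaches −4.05 at *Otx2*, and the destruction complex and the hypoxia and glycolysis list hold no called gene.

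Of 15 tested genes of the p53 target list, 5 rose and none fell, against 1.28% and 1.04% of all genes, with a median log2 fold change of 0.40 against 0.00. *Cdkn1a*, which encodes the CDK inhibitor p21, doubled with little scatter, from 291 and 298 to 601 and 603 CPM (1.06 ± 0.13, adjusted p = 3.84e-07; 1.06 and 1.05 within the high and low sets), and averaged 844 CPM at 10 µM. *Phlda3*, an AKT inhibitor gene, went from 93.5 and 85.1 to 148 and 162 CPM (0.82 ± 0.16, adjusted p = 0.00107). *Mdm2*, the ubiquitin ligase gene that feeds back on p53, went from 117 and 106 to 193 and 171 CPM (0.70 ± 0.15, adjusted p = 0.00525), *Perp*, a desmosomal p53 target, from 47.8 and 44.7 to 90.5 and 84.6 CPM (0.92 ± 0.19, adjusted p = 0.00286), and *Ccng1*, which encodes cyclin G1, from 172 and 194 to 260 and 271 CPM (0.58 ± 0.14, adjusted p = 0.0113). *Cdkn1a* and *Phlda3* passed without each library in turn. *Mdm2*, *Perp* and *Ccng1* did not pass without untreated replicate 1 (adjusted p = 0.0849, 0.0803 and 0.321), nor *Mdm2* without untreated replicate 2 or 2.5 µM replicate 1 (0.0644 and 0.0818), nor *Ccng1* without 2.5 µM replicate 2 (0.0943).

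Of 15 tested G1 cyclins and CDK inhibitors, 2 rose and 1 fell, against 1.28% and 1.04% of all genes. Those that rose were *Ccnd2* and *Cdkn1a*, and *Ccne1*, which encodes cyclin E1, fell from 124 and 145 to 81.9 and 77.8 CPM (−0.72 ± 0.17, adjusted p = 0.00836). Of 20 genes of DNA replication and mitosis, 18 had fold changes below 0 but the median was only −0.22, and *Ccnb1*, which encodes cyclin B1, was the only one called (331 and 319 against 233 and 230 CPM, adjusted p = 0.0362). *Ccne1* did not pass without untreated replicate 2 or 2.5 µM replicate 2 (adjusted p = 0.106 and 0.198), and *Ccnb1* did not pass without any 1 of the libraries (0.274 and 0.119 for untreated replicates 1 and 2, 0.0888 and 0.272 for 2.5 µM replicates 1 and 2). *Ccnd2* was lost in the same way, with 0.297, 0.0564, 0.0509 and 0.248. In the Myc family list, which has *Myc*, its partners and classical targets, all 12 fold changes were below 0 (median −0.35), and none passed with edgeR or DESeq2, with 4 at an unadjusted p under 0.05.

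*Vim*, *Krt8* and *Krt18*, which encode intermediate filament proteins, passed under every alternative. *Vim*, the intermediate filament gene of mesenchymal and many cultured cells, was at 147 CPM in both untreated libraries and at 313 and 332 CPM after treatment (1.17 ± 0.14, adjusted p = 3.37e-07). *Krt8* and *Krt18*, the keratin pair of simple epithelia, went from 139 and 151 to 305 and 300 CPM and from 139 and 163 to 331 and 271 CPM (1.09 ± 0.14 and 1.03 ± 0.14, adjusted p = 1.55e-06 and 5.95e-06). These 3 genes passed without each library in turn, with log2 ratios from 0.98 to 1.18 within the sets. *Tagln*, which encodes the smooth muscle protein transgelin, went from 89.7 and 128 to 269 and 203 CPM (1.16 ± 0.18, adjusted p = 3.3e-05), and *Tpm1*, a tropomyosin gene, from 427 and 430 to 606 and 572 CPM (0.49 ± 0.12, adjusted p = 0.0222). They were the 2 called genes of 16 tested in the actin and SRF/YAP target list (median log2 0.18). *Fn1*, which encodes fibronectin, went from 624 and 529 to 809 and 969 CPM (0.65 ± 0.13, adjusted p = 0.00154), whereas *Cdh1*, the E-cadherin gene, stayed within 737 to 844 CPM (interval −0.26 to 0.24). *Tagln* and *Tpm1* did not pass without untreated replicate 1 (adjusted p = 0.0502 and 0.252), *Fn1* and *Tpm1* without untreated replicate 2 (0.0602 and 0.0893), *Tpm1* without 2.5 µM replicate 1 (0.168) and *Fn1* without 2.5 µM replicate 2 (0.0598).

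*Pdgfa*, *Lgals1* and *Sdc4* belong to no list and are named because they passed under every alternative. *Pdgfa*, a growth factor gene, went from 177 and 184 to 375 and 385 CPM, *Lgals1*, which encodes galectin-1, from 195 and 223 to 474 and 373 CPM, and *Sdc4*, which encodes the proteoglycan syndecan-4, from 221 and 220 to 341 and 414 CPM. Their log2 fold changes were 1.11 ± 0.14, 1.05 ± 0.15 and 0.81 ± 0.13, and the treated libraries lay well above the untreated ones in each.

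The keratins and collagens are also markers of other cell types, so the marker lists were read in full. A member low in untreated cells was tested only if treated libraries passed the count filter. The 12 trophectoderm markers summed to 382 and 409 CPM untreated and 744 and 703 CPM at 2.5 µM, with *Krt8* and *Krt18* the 2 called of 9 tested. Without these 2, the other 10 summed to 104 and 95.7 CPM untreated and 109 and 131 CPM at 2.5 µM. Of the 9 tested, 8 fold changes were above 0 (median log2 0.85). The 16 primitive endoderm markers summed to 815 and 851 against 1124 and 1052 CPM. Of 9 tested, 7 fold changes were above 0 (median log2 0.32) and 2 were called. These were *Lama1*, a laminin gene (64.1 and 63.8 against 108 and 93.0 CPM, adjusted p = 0.0430), and *Sparc*, a matrix protein gene (458 and 502 against 746 and 666 CPM, adjusted p = 0.00576). The 12 fibroblast markers summed to 303 and 276 against 445 and 439 CPM, with *Lum* at 0 in all 4 libraries. All 6 tested fold changes were above 0 (median log2 0.44), and 3 were called, *Col1a1*, *Col1a2* and *Fbln1*. *Col1a2* passed the count filter only with treated libraries, so the filter set this shared direction in part. Levels of *Col1a1*, the α1 chain of type I collagen, were 24.5 and 13.8 CPM untreated and 64.7 and 58.7 CPM at 2.5 µM (1.59 ± 0.25, adjusted p = 5.17e-05), those of *Col1a2* 6.52 and 7.44 against 17.2 and 26.7 CPM (adjusted p = 0.00602), and those of *Fbln1* 225 and 204 against 308 and 300 CPM (adjusted p = 0.0275). The part of such cells in these results was not tested.

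*Col1a1* did not stay up with dose. It averaged 36.4 CPM at 5 µM, 25 CPM at 7.5 µM and 21 CPM at 10 µM, and the difference between 10 and 2.5 µM passed the test (adjusted p = 0.000231), so that its highest level among the 5 doses was at 2.5 µM. *Col1a1* kept its call without each library in turn. *Lama1* was lost without any 1 of the libraries (adjusted p = 0.350, 0.138, 0.267 and 0.0829 in label order, untreated first), as was *Fbln1* (0.170, 0.187, 0.143 and 0.0948). *Sparc* did not pass without untreated replicate 1 or 2.5 µM replicate 1 (0.218 and 0.100), and *Col1a2* without untreated replicate 1 or 2.5 µM replicate 2 (0.218 and 0.345).

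**Figure D5:**
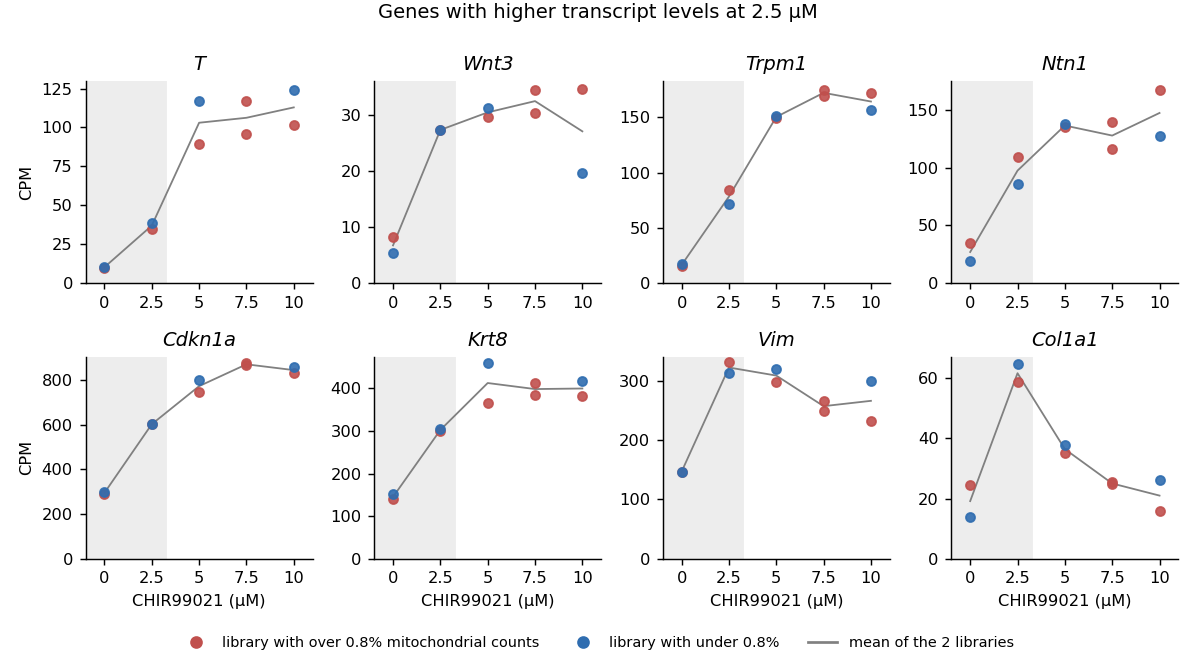
Transcript levels (CPM, linear axis from 0) of 8 genes that rose at 2.5 µM in the 10 libraries of unedited cells by dose, with the mean of the 2 libraries as a line. *T* and *Trpm1* climb further at 5 µM, *Wnt3* and *Vim* are near their highest level at 2.5 µM, and *Col1a1* returns to about 21 CPM at 10 µM.

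By the size of the rise, among called genes averaging 20 CPM or more, the leading 12 were *Sp5*, *Trpm1*, *T*, *Ntn1*, *Cdx1*, *Col1a1*, *S100a1*, *S100a13*, *Axin2*, *Jag1*, *Dnah8* and *Gm5148*. *Trpm1*, a cation channel gene known from melanocytes and retinal bipolar cells (chr7:64153835-64269775, plus strand), had the lowest adjusted p of all genes. It was counted at 15.8 and 17.0 CPM untreated and 71.9 and 84.6 CPM at 2.5 µM (2.31 ± 0.22, adjusted p = 4.19e-09; 2.32 and 2.02 within the high and low sets), and averaged 150 CPM at 5 µM. *Ntn1*, which encodes the guidance cue netrin-1, went from 34.8 and 19.1 to 86.2 and 109 CPM (1.80 ± 0.21, adjusted p = 3.37e-07). *S100a1* and *S100a13*, calcium-binding protein genes that start next to each other on opposite strands of chromosome 3, went from 22.8 and 27.6 to 74.7 and 70.9 CPM and from 21.2 and 27.6 to 71.9 and 61.0 CPM. Their log2 fold changes, 1.58 ± 0.22 and 1.49 ± 0.23, were nearly the same, and both passed without each library in turn, as did *Trpm1* and *Ntn1*.

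The remaining leading rises rest on weaker ground. *Jag1*, a Notch ligand gene, went from 12.5 and 10.6 to 27.3 and 31.3 CPM (adjusted p = 0.00930). *Dnah8*, an axonemal dynein gene, had 24.5 and 43.6 against 83.3 and 74.7 CPM, and it overlaps *Glo1* and *1700097N02Rik* on the other strand, whose reads cannot be told apart from its own if the counting ignored strand. *Gm5148*, a predicted gene, had 16.3 and 33.0 against 80.5 and 39.6 CPM and shares its locus with *Rps23-ps1*, a ribosomal pseudogene with far more counts. *Jag1*, *Dnah8* and *Gm5148* did not pass without untreated replicate 1 (adjusted p = 0.132, 0.192 and 0.591), nor *Jag1* without untreated replicate 2 or 2.5 µM replicate 2 (0.0538 and 0.190), nor *Gm5148* without 2.5 µM replicate 1 (0.351) or with DESeq2 (0.693).

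The leading 12 falls by the same rule were *Myrf*, *Enpp3*, *Car4*, *Bckdha*, *Tfdp2*, *Nr1d1*, *Crebrf*, *Pcyt1b*, *Mettl27*, *Ppp1r1a*, *Aass* and *Ifitm1*. *Myrf*, a membrane-bound transcription factor gene known from myelination (chr19:10208272-10240748, minus strand), fell from 47.3 and 45.7 to 5.75 and 13.0 CPM (−2.14 ± 0.32, adjusted p = 3.2e-05). *Enpp3*, which encodes an ectoenzyme that cleaves nucleotides, fell from 37.5 and 30.8 to 2.87 and 11.4 CPM (−2.02 ± 0.39, adjusted p = 0.000961), and *Car4*, a membrane-anchored carbonic anhydrase gene, from 40.8 and 40.4 to 8.62 and 11.4 CPM (−1.93 ± 0.34, adjusted p = 0.000369). The fitted falls of these 3 genes were 4.40-, 4.07- and 3.81-fold, and the means at 10 µM were 6.66, 5.90 and 1.63 CPM.

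Metabolic and regulatory genes followed. *Bckdha*, a subunit gene of the branched-chain ketoacid dehydrogenase, fell from 103 and 122 to 43.1 and 32.8 CPM (−1.57 ± 0.20, adjusted p = 1.64e-06), and *Aass*, the first enzyme of lysine breakdown, from 85.3 and 58.5 to 28.7 and 32.8 CPM (−1.23 ± 0.23, adjusted p = 0.000812). *Tfdp2*, which encodes a dimer partner of E2F factors, fell from 77.2 and 69.1 to 21.6 and 28.2 CPM (−1.49 ± 0.23, adjusted p = 5.17e-05). *Ifitm1*, an interferon-induced membrane protein gene that ES cells express, fell from 769 and 840 to 356 and 328 CPM (−1.21 ± 0.13, adjusted p = 5.36e-08; −1.21 and −1.19 within the high and low sets), the lowest adjusted p among the genes that fell. *Nr1d1*, the circadian repressor REV-ERBα, *Crebrf*, *Pcyt1b*, an enzyme of phosphatidylcholine synthesis, *Mettl27* and *Ppp1r1a*, an inhibitor of protein phosphatase 1, had log2 fold changes from −1.45 to −1.23 and adjusted p from 0.00304 to 0.0255. *Myrf*, *Car4*, *Bckdha*, *Tfdp2* and *Ifitm1* passed without each library in turn.

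The calls of the others were lost without 1 or more libraries. *Enpp3*, *Aass*, *Crebrf*, *Pcyt1b* and *Mettl27* did not pass without untreated replicate 1 (adjusted p = 0.0962, 0.218, 0.175, 0.152 and 0.563), nor *Nr1d1*, *Ppp1r1a* and *Pcyt1b* without untreated replicate 2 (0.0977, 0.0697 and 0.0600), nor *Nr1d1* and *Mettl27* without 2.5 µM replicate 1 (0.0619 and 0.0706). *Nr1d1*, *Crebrf*, *Pcyt1b*, *Mettl27* and *Ppp1r1a* were lost without 2.5 µM replicate 2 (0.197, 0.179, 0.382, 0.291 and 0.0781). *Nr1d1* overlaps *Thra* on the other strand.

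In the metabolic and stress lists 0 to 2 genes of each were called, where 2.32% of all genes were, and the medians lay within 0.09 of 0 on the log2 scale. Of 22 genes of hypoxia and glycolysis none was called by edgeR, with 3 at an unadjusted p under 0.05 (median log2 0.09, range −0.28 to 0.40), and DESeq2 called 1, the glucose transporter gene *Slc2a3* (edgeR adjusted p = 0.0679). Of 25 genes of cholesterol and fatty acid synthesis, *Scd2*, a desaturase gene, rose (292 and 329 against 417 and 422 CPM, adjusted p = 0.0393) and *Insig1*, a sterol sensor gene, fell (257 and 247 against 148 and 197 CPM, adjusted p = 0.0400), with a median of 0.02. *Pygl*, which encodes the liver glycogen phosphorylase, rose from 17.9 and 17.0 to 40.2 and 41.9 CPM (1.25 ± 0.26, adjusted p = 0.00313) and was the only called gene of 12 tested for glycogen metabolism (median −0.08). *Asns*, asparagine synthetase, rose from 372 and 406 to 579 and 568 CPM (0.59 ± 0.13, adjusted p = 0.00440) and was the only 1 of 17 tested ATF4 target genes (median 0.08). Among 25 tested lysosomal and TFEB target genes, *Npc2*, a lysosomal cholesterol carrier gene, rose from 273 and 343 to 468 and 390 CPM (adjusted p = 0.0369), and *Rragd*, a GTPase gene of the mTORC1 pathway, rose from 16.9 and 20.2 to 35.9 and 48.0 CPM (1.29 ± 0.26, adjusted p = 0.00241), with a median of 0.08. The 9 mitochondrially encoded genes tested held no call with edgeR or DESeq2 and none at an unadjusted p under 0.05 (median −0.08).

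Several of these calls did not pass with 1 library left out. *Scd2*, *Insig1*, *Pygl*, *Asns*, *Npc2* and *Rragd* did not pass without untreated replicate 1 (adjusted p = 0.440, 0.282, 0.0962, 0.183, 0.559 and 0.182). *Scd2* and *Insig1* did not pass without untreated replicate 2 (0.0564 and 0.126) or, with *Npc2*, without 2.5 µM replicate 1 (0.147, 0.351 and 0.359), and *Scd2*, *Pygl* and *Rragd* did not pass without 2.5 µM replicate 2 (0.141, 0.0781 and 0.198).

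Beside the clones, which differ from the treated cells in more than the compound and were not tested against them, the levels at 2.5 µM were within the clones' range for *Sp5* (36.4 to 128 CPM over 15 clones), *Cdx1* (32.3 to 334 CPM), *Axin2* (22.6 to 87.4 CPM), *Tbx3* (28.7 to 269 CPM) and *Bmp4* (74.5 to 237 CPM). *S100a1* and *S100a13* had at most 20.8 and 26.2 CPM in the clones, below both libraries at 2.5 µM, and the untreated libraries, with 22.8 and 27.6 CPM for *S100a1* and 21.2 and 27.6 CPM for *S100a13*, also reached above that range. *Utf1* had 392 to 676 CPM in the clones, above both libraries at 2.5 µM and around the untreated level.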

How the data were processed

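RNA of unedited E14 cells was sequenced with mcSCRB-seq. The authors used Cutadapt for adapters, SortMeRNA against ribosomal RNA, RNA STAR for alignment to mm10, UMI-tools and Picard MarkDuplicates to remove duplicate molecules, and featureCounts 2.0.1 to count reads in genes. The deposited values are these deduplicated counts of 48440 genes, not normalized. The annotation release and the strand setting are not given in the sources used here. Symbols and coordinates came from GENCODE M21, with 48058 gene IDs found, 40606 in the same version. All columns were assigned to samples by their names.

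CPM were computed from library totals. edgeR 4.0.16 (R 4.3.3) was run on all 10 unedited libraries with dose as a factor (TMM factors of the 4 libraries 0.969 to 1.02, filterByExpr minimum count 10, common biological coefficient of variation 0.0899, 5 residual degrees of freedom). Beside the residual ones, a median of 36.2 prior degrees of freedom, shared across genes, entered the estimate of the spread. The higher doses entered the normalization, the filter and the estimate of the spread. A gene below the filter in untreated cells was thus tested only if treated libraries passed it. Standard errors follow from the F statistic and 95% intervals from its t distribution. Leaving out 1 library leaves a single library at that dose, which is then assumed to vary like the other doses. Ratios within a mitochondrial set (under or over 0.8% of counts) compare 1 library with 1, with a prior count of 2. Simulated counts for 10674 genes with no change gave 0 calls, and with 200 planted changes 3.36% of calls were false. The planted genes averaged 20 CPM or more over the 10 libraries, and the simulation held no difference by mitochondrial share. It was a single draw, and each gene's spread followed the fitted trend over expression with no scatter around it. Recovery and error control in the data can therefore be worse. DESeq2 1.42.0 recovered 10.5%, 46.3% and 80.3% of planted 1.5-, 2- and 3-fold changes. Promoter windows came from RefSeq (GRCm38.p6).

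The samples compared, the gene lists and the tests were chosen with earlier results of these data known. Named genes are the study's 10 targets, *Ctnnb1*, called members of the lists, and the 12 largest rises and 12 largest falls among called genes that averaged 20 CPM or more and whose groups do not overlap. *Rspo3*, *Pdgfa*, *Lgals1*, *Sdc4* and the other genes listed as passing under every alternative were named after their values were seen.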

Additional observations from a re-analysis of the deposited data

How the results depend on the processing

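Of 1044 values of 78 named genes under the alternatives, 813 stayed on the same side of the threshold. A further 231 kept the direction but lost the call. No gene called in the main fit or in the alternative changed direction between them. Genes called in neither could change sign and are among the 813, such as *Etv4* (log2 fold change −0.08 in the main fit, 0.70 after thinning). Against 248 genes changed (137 rising, 111 falling), DESeq2 called 77 (58 and 19; 73 shared), counts thinned to the smallest total of 306157 gave 31 (20 and 11), and the mitochondrial-share set as a block gave 545 (285 and 260), which held all 248. Leaving out 1 library gave 70 to 153 genes, 36 to 90 rising and 34 to 65 falling. RLE size factors (247), no filter on low counts (299), the 4 libraries alone (198) and leaving out mitochondrially encoded genes (273) stayed within 1.5 times. Thinning and DESeq2 tested fewer genes (6441, and 4037 with an adjusted p); for the other differences the cause was not tested.

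Deviations of libraries with the same number correlated negatively (r = −0.232 over 7066 genes, which are not independent replicates). With 2 libraries per dose, the crossed numbers give the same value with the opposite sign. This single value cannot tell whether libraries with the same number shared a culture or a preparation. The replicate block over 10 libraries gave 231 genes (134 and 97), and over the 4 libraries alone, an alternative added after seeing the data, 98 (60 and 38). The crossed pairing, also added then, coincides with the mitochondrial-share sets and gave 643 genes over the 4 libraries (335 and 308). Of the medians of 32 lists under the alternatives, 335 moved by less than 1 SD between the values within the 2 mitochondrial-share sets and 112 by more, at most by 0.989 (the primitive streak list without 2.5 µM replicate 2). Depth limits genes near 1.63 to 4.31 CPM, such as *Fst*, *Nog* and *Rspo3*.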

Other observations

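Some gene families stood out when the called genes were read by symbol, and they were chosen after their values were seen, so their counts are descriptions with no test, to be read beside the 1.28% of all tested genes that rose and the 1.04% that fell. Of 6 tested S100A genes, which encode small calcium-binding proteins, 3 rose (*S100a1*, *S100a6* and *S100a13*) and all 6 fold changes were above 0 (median log2 0.89, against 0.00 over all genes). Of 7 tested annexins, which bind membranes in the presence of calcium, *Anxa1*, *Anxa3* and *Anxa5* rose and 6 were above 0 (median 0.26). Of 6 tested keratins, *Krt8*, *Krt18* and *Krt19* rose, with 4 above 0 and 2 below (median 0.67). Of 14 tested collagen genes, *Col1a1*, *Col1a2*, *Col5a1* and *Col27a1* rose and 11 were above 0 (median 0.55). Members low in untreated cells, such as *Col27a1* (2.72 and 4.25 CPM) and *S100a16* (3.26 and 2.13 CPM), passed the count filter only with treated libraries. The filter thus set the shared direction of these families in part. *Anxa1*, *Anxa3*, *Anxa5*, *Krt19* and *Col27a1* did not pass without untreated replicate 1 (adjusted p = 0.0682, 0.294, 0.275, 0.0926 and 0.435), nor *Col5a1* and *Col27a1* without untreated replicate 2 (0.0722 and 0.0697), *Anxa3* without 2.5 µM replicate 1 (0.0762), or *Col5a1* and *Col27a1* without 2.5 µM replicate 2 (0.410 and 0.429). *Col1a2* was lost as given above, and *S100a1*, *S100a6*, *S100a13*, *Krt8*, *Krt18* and *Col1a1* passed without each library in turn.

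The 3 tested *Ifitm* genes, which encode interferon-induced membrane proteins, all lay below 0 (median −0.67), with *Ifitm1* and *Ifitm2* called. The 3 *Phlda* genes split, *Phlda1* and *Phlda3* rising and *Phlda2*, an imprinted gene that restrains placental growth, falling. *Ifitm2* did not pass without untreated replicate 2 or 2.5 µM replicate 2 (adjusted p = 0.0600 and 0.0985), *Phlda1* without untreated replicate 1 or 2.5 µM replicate 1 (0.170 and 0.0588), and *Phlda2* without untreated replicate 1 or 2.5 µM replicate 2 (0.0532 and 0.213). A pair of further genes was near the limit of detection at 2.5 µM. *Ncan*, which encodes the brain proteoglycan neurocan, had 24 counts over the untreated libraries and 2 at 2.5 µM (ratio of pooled levels 8.67, counting interval 2.15 to 75.6), and *Dusp27* had 34 and 3 counts (8.18, counting interval 2.57 to 41.6).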
